A study of Homo sapiens with 6 samples.

Results

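Small nucleolar ribonucleoproteins (snoRNPs) were followed through the mRNAs of their 8 core proteins and of 2 proteins that bind them, NOLC1 and TCOF1, after knockdown of PAX9 in MCF10A cells. The 10 genes were taken by symbol from a table of 41656 rows, 27678 of which carried a gene symbol. Each of the 10 had 1 row, and 9 were listed under the exact symbol, while NHP2L1 was listed as SNU13, the current symbol of the same gene in RefSeq. MCF10A cells are a standard human breast epithelial cell line that does not form tumors, here grown in medium with horse serum, epidermal growth factor, hydrocortisone, cholera toxin and insulin. The 3 siNT samples received a non-targeting siRNA and the 3 siPAX9 samples received siRNAs against PAX9, each at 30 nM in lipid-based transfection for 72 hours. All samples come from 1 cell line, and no untransfected group was analysed here.

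The deposited table pools the 3 samples of a group and gives 1 FPKM value per row. FPKM scales fragments to the length of the transcript and to the mapped fragments of the library. The aligner used does not cross splice junctions, and the 10 genes run from 2 exons (NOP10) to 27 (TCOF1). How far this moved ranks, shares and ratios between genes was not tested. The table holds no value per sample and no counts, and the authors' own p-values were not used, so no spread between replicates, error or test is given here and differences are described by their size only. The number of reads behind each value cannot be read from the table. PAX9, the targeted gene, had a pooled FPKM of 2.80 in siNT and 0.325 in siPAX9, a difference of -3.10 on the log2 scale, or -1.52 with 1 added to each FPKM. All 8 genes listed as markers of basal breast epithelium were present, at 31.4 to 1718 FPKM in siNT and 25.3 to 2088 in siPAX9. CDH1 among them is a marker of epithelial cells in general. 2 of the 8 were higher in siPAX9 by at least 2-fold, KRT6A at 368 and 959 FPKM and CDH1 (E-cadherin) at 45.3 and 124, against 7.26% of the 12831 named rows with a larger FPKM of at least 1 and both values above 0. Of the 8, 5 were higher and 3 were lower by any amount, against 54.7% of named rows lower. The 3 were TP63, a transcription factor of basal cells, at 35.4 and 25.3, ITGB4 at 147 and 128, and LAMB3 at 139 and 124. The summed FPKM of the 8 was 4042 in siNT and 5296 in siPAX9. Of 4 luminal markers, GATA3 was at 6.19 and 7.56 FPKM, and ESR1, PGR and KRT19 were under 1 in both groups, with a summed FPKM of the 4 of 6.27 and 7.98. The 7 markers of fibroblasts, endothelium and blood cells summed to 3.13 FPKM in siNT and 4.79 in siPAX9. Of these, COL3A1 and CD3E were listed at 0 in both groups, COL1A1 was at 0.454 and 4.13 FPKM, PECAM1 at 2.58 and 0.495, and PDGFRB, VWF and PTPRC were under 1. The part of these marker differences in the values of the snoRNP genes was not tested.

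snoRNPs are the nucleolar machines that modify ribosomal RNA at sites chosen by base pairing with a small nucleolar RNA (snoRNA). Box C/D snoRNPs add methyl groups to ribose, and fibrillarin (FBL) is their methyltransferase. Box H/ACA snoRNPs turn uridine into pseudouridine, and dyskerin (DKC1) is their pseudouridine synthase. Some particles of both kinds are needed for the cleavage of pre-rRNA rather than for its modification, with that of the U3 box C/D snoRNA as the best known case, and the H/ACA proteins are also part of telomerase.

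The start regions of FBL and NOP10 are shown because these were the genes with the largest and the smallest difference between the groups, and that of NOP56 because its protein sits beside fibrillarin in the same particle. The sequences are from RefSeq on GRCh38.p14, a later build than the hg19 coordinates of the table, and run 5′ to 3′ on the coding strand from 190 bases before to 20 bases after the start. Capitals mark the E-box CACGTG, the sequence that MYC with MAX can bind, and the GC box GGGCGG on either strand.
FBL, chr19:39846360-39846569, minus strand: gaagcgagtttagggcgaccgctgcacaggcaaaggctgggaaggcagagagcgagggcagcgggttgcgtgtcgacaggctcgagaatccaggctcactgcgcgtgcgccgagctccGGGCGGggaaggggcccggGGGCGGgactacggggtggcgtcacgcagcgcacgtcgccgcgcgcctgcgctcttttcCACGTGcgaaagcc
NOP56, chr20:2652442-2652651, plus strand: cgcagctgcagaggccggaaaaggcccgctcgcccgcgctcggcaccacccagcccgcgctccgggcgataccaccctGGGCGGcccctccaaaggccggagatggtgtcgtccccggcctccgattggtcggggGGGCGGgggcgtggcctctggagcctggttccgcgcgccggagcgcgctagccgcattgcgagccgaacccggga
NOP10, chr15:34343117-34343326, minus strand: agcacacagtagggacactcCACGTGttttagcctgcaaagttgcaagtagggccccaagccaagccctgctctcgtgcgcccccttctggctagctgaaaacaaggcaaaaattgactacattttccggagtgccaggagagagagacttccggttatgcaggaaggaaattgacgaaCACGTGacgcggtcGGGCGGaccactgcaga

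A start region of 250 bases before to 50 after the start was on hand for 6 of the 10 genes (FBL, NOP56, DKC1, GAR1, NHP2 and NOP10), with 2 starts for GAR1. Both strands were searched, and the E-box reads the same on each. CACGTG was found for 3 of the 6 genes, against 8.77% of the 27305 genes in the RefSeq table. With only the 250 bases before the start it was found for 1 of the 6, against 7.73% of all genes. In FBL it began at base 7 after the start, in NOP10 at 170 and 11 bases before the start, and in GAR1 at base 32 after the start that lies farther downstream. The 3 genes with the motif include both the largest and the smallest difference among the 10. GGGCGG was found for 6 of the 6 genes, against 48.3% of all genes. GCGTGACCA and GCGGAACGG, which the study scanned as binding sequences of PAX9, were each found for 0 of the 6 genes, against 0.194% and 0.267% of all genes. The other sequences that the study scanned, and the longer upstream regions it used, were not searched here. These matches describe the letters of these windows only.

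All 10 mRNAs were lower in siPAX9 than in siNT. FBL stood apart, at 2.71-fold lower, while the other 9 genes lay between 1.17-fold lower (NOP10) and 1.88-fold lower (TCOF1). Of the 10, 1 was lower by at least 2-fold and 0 were higher by at least 2-fold. Among the 12831 named rows whose larger FPKM was at least 1 and whose values were both above 0, 6.89% were lower and 7.26% were higher by at least 2-fold. At a limit of 1.5-fold, 5 of the 10 genes were lower (FBL, TCOF1, NHP2, NHP2L1 and DKC1), against 16.8% of named rows. The share of named rows that were lower by any amount was 54.7%. The median difference of the 10 genes was -0.58 on the log2 scale, and that of the named rows was -0.06. In bulk RNA, fewer cells with the mRNA and less mRNA per cell cannot be told apart.

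**Figure D1:**
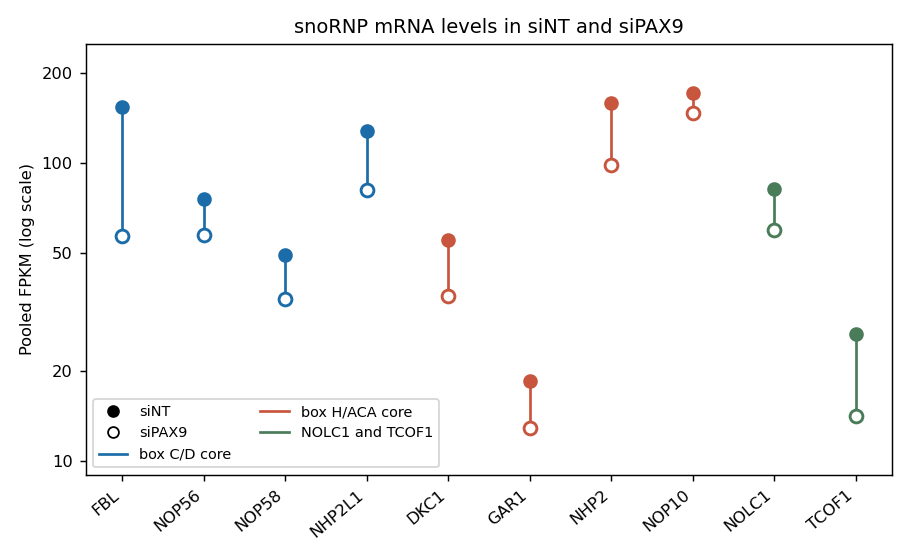
Pooled FPKM of each gene (log axis) in siNT (filled circles) and siPAX9 (open circles), 1 value per group with no error, colored by box C/D core, box H/ACA core, and NOLC1 with TCOF1. Every open circle lies below its filled circle, and the FBL pair, 154 and 56.6 FPKM, is the farthest apart.

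The box C/D core holds fibrillarin, the paired scaffold proteins NOP56 and NOP58, and NHP2L1 (SNU13), which binds the kink-turn of the snoRNA and is also part of the U4 spliceosomal particle. FBL (chromosome 19, 40325093 to 40337054 on hg19) had a pooled FPKM of 154 in siNT and 56.6 in siPAX9, a difference of -1.44 on the log2 scale. NOP56 (chromosome 20, 2633178 to 2644869) had 75.3 FPKM in siNT and 57.3 in siPAX9, a log2 difference of -0.39. NOP58 (chromosome 2, 203130439 to 203168384) had 49.0 FPKM in siNT and 35.0 in siPAX9, a log2 difference of -0.49. The log2 difference of FBL exceeded that of NOP56 by -1.05 and that of NOP58 by -0.95, while those of the paralogs NOP56 and NOP58 lay 0.09 apart. NHP2L1 (chromosome 22, 42069937 to 42084913) had 128 FPKM in siNT and 81.3 in siPAX9, a log2 difference of -0.65.

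The relative amounts of the 4 box C/D mRNAs were not the same in the groups. FBL was the most abundant of the 4 in siNT, with 37.8% of their summed FPKM, and made up 24.6% in siPAX9. NHP2L1 went from 31.5% to 35.3% and was the most abundant in siPAX9. NOP56 made up 18.6% in siNT and 24.9% in siPAX9, so that it was level with FBL there. In siNT there was 2.04 times as much FBL as NOP56 by FPKM, and in siPAX9 0.987 times as much. The ratio of NOP56 to NOP58 was 1.54 in siNT and 1.64 in siPAX9.

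The box H/ACA core holds dyskerin, GAR1, NHP2 and NOP10, of which DKC1, NHP2 and NOP10 are genes of the inherited telomere disease dyskeratosis congenita. DKC1 (chromosome X, 153991017 to 154005964) had a pooled FPKM of 55.2 in siNT and 35.9 in siPAX9, a log2 difference of -0.62. NHP2 (chromosome 5, 177576465 to 177580961) had 158 FPKM in siNT and 98.1 in siPAX9, a log2 difference of -0.69. GAR1 (chromosome 4, 110736666 to 110745893), which joins the particle late in its assembly in place of NAF1, had 18.6 FPKM in siNT and 12.9 in siPAX9, a log2 difference of -0.53. These 3 genes lay close to each other in size of difference, and GAR1 was the least abundant of all 10 genes in both groups. NOP10 (chromosome 15, 34633917 to 34635362), a small protein that holds dyskerin and NHP2 together, had 172 FPKM in siNT and 147 in siPAX9, a log2 difference of -0.23. NOP10 was the most abundant of the 10 genes in both groups and differed least.

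The box H/ACA mRNAs kept their order of abundance, with NOP10 first, then NHP2, DKC1 and GAR1. The share of NHP2 in their summed FPKM was 39.2% in siNT and 33.4% in siPAX9, and the ratio of NOP10 to DKC1 was 3.11 and 4.09. The ratio of NHP2 to DKC1 was 2.86 in siNT and 2.74 in siPAX9. The summed FPKM of the core was 403 in siNT and 294 in siPAX9, a log2 difference of -0.46. That of the box C/D core was 406 and 230.2, a log2 difference of -0.82. The medians of the genes of the 2 cores were alike, at -0.57 for box C/D and -0.58 for box H/ACA on the log2 scale. NHP2 and NHP2L1, which are related RNA-binding proteins of the different cores, differed between the groups by -0.69 and -0.65.

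**Figure D2:**
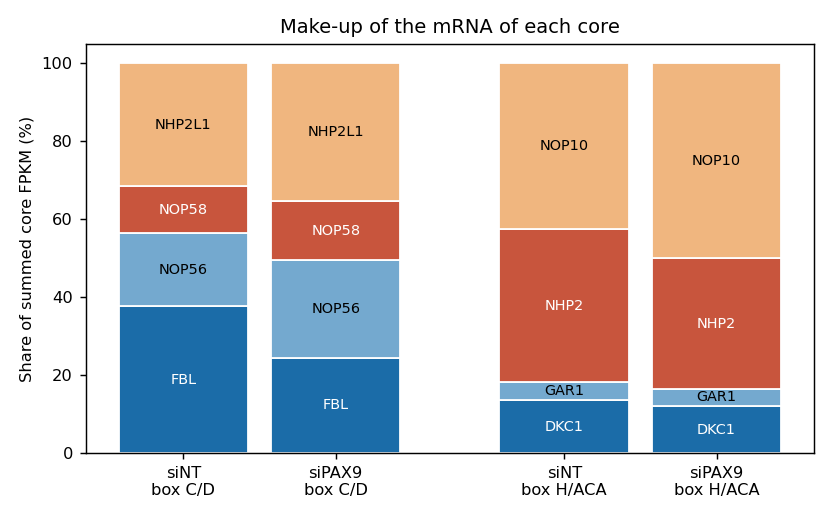
Stacked bars give the share (%) of each mRNA in the summed pooled FPKM of its core, in siNT and siPAX9, with 1 value per group and no error. FBL takes 37.8% of the box C/D bar in siNT and 24.6% in siPAX9, and the order within the box H/ACA bars is the same in both groups.

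NOLC1 (Nopp140) and TCOF1 (treacle) are related, highly phosphorylated nucleolar proteins. NOLC1 binds snoRNPs of both kinds on their way between Cajal body and nucleolus, and TCOF1 works in rDNA transcription and rRNA methylation and is the main gene of Treacher Collins syndrome, a craniofacial disorder. NOLC1 (chromosome 10, 103911933 to 103923628) had a pooled FPKM of 81.9 in siNT and 59.3 in siPAX9, a log2 difference of -0.46. TCOF1 (chromosome 5, 149737202 to 149779871) had 26.6 FPKM in siNT and 14.1 in siPAX9, a log2 difference of -0.91, and was after FBL the gene with the largest difference. It lay just short of the 2-fold limit, and FBL was the only one of the 10 past it. The ratio of NOLC1 to TCOF1 was 3.08 in siNT and 4.20 in siPAX9.

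Of named rows with an FPKM of at least 10, 60.7% were lower in siPAX9 by any amount, against 54.7% of all named rows. By at least 2-fold it was 5.85%, against 6.89%. The genes were therefore also set beside the 4242 named rows whose mean FPKM of both groups lay within their own range. Of these rows 62.4% were lower by any amount, 5.00% were lower by at least 2-fold, and the median log2 difference was -0.15. FBL was lower than all but 1.84% of them and TCOF1 than all but 6.41%. NHP2, NHP2L1 and DKC1 were undercut by 12.4% to 14.5% of the rows, GAR1, NOP58, NOLC1 and NOP56 by 18.7% to 27.7%, and NOP10 by 42.2%. NOP10, whose mean FPKM of 159 sets the upper end of this range, lay nearest to the middle of these rows. Of the 593 named rows with a mean FPKM of at least 100, 61 were lower by at least 2-fold (10.3%), and 22 of them had a log2 difference as low as that of FBL or lower, FBL included.

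**Figure D3:**
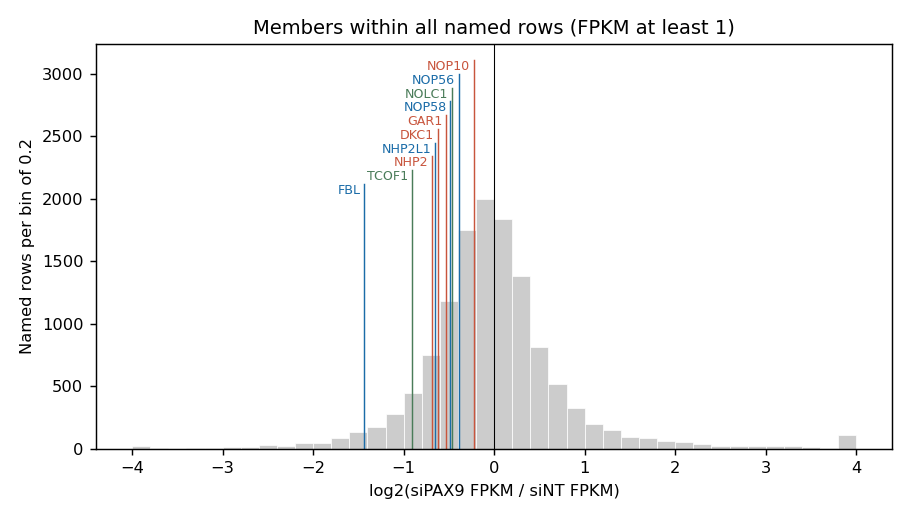
Grey bars count named rows with FPKM of at least 1 per 0.2 step of the log2 difference (siPAX9 over siNT, pooled values), with rows beyond 4 in either direction added to the end bars, and the lines mark the 10 genes. All 10 lines lie left of 0, with NOP10 at -0.23 nearest to it and FBL at -1.44 farthest.

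By distance in both log2 FPKM values, the 5 single-symbol rows most like FBL were IMPDH2, CNIH1, FSCN1, SNHG16 and RBMX. IMPDH2, an enzyme of guanine nucleotide synthesis, had 132 FPKM in siNT and 59.9 in siPAX9. CNIH1 had 182.2 and 51.5 FPKM, FSCN1 132.1 and 65.7, SNHG16, a host gene of snoRNAs, 177 and 67.2, and RBMX 124 and 52.2. The likeness rests on 2 pooled values per gene.

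snoRNPs are built by the R2TP complex and dedicated factors, and 14 genes of assembly and maturation were examined. Of these, 13 were lower and 1 was higher in siPAX9, with 0 past 2-fold in either direction and a median log2 difference of -0.43. Of all named rows, 54.7% were lower by any amount, 6.89% were lower by at least 2-fold and 7.26% were higher by at least 2-fold. The largest differences were those of C12orf45 (NOPCHAP1), a chaperone of NOP58, with 28.6 FPKM in siNT and 15.7 in siPAX9, SHQ1, which binds dyskerin before assembly, with 15.4 and 9.37 FPKM, and PIH1D1, a subunit of R2TP, with 37.0 and 22.8 FPKM. Their log2 differences were -0.86, -0.71 and -0.70. The gene that was higher was PHAX, which exports precursors of small nuclear RNAs and helps box C/D snoRNAs reach Cajal bodies, with 17.3 and 23.8 FPKM and a log2 difference of 0.45.

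Of 8 genes of Cajal bodies, small Cajal body RNPs and telomerase, 7 had a row and 6 reached an FPKM of 1. Of the 6, 5 were lower, against 54.7% of named rows, with a median log2 difference of -0.52. Past 2-fold were 0 of the 6, against 6.89% of named rows lower and 7.26% higher. GEMIN5, which delivers small nuclear RNAs to the SMN complex, had 17.1 FPKM in siNT and 10.9 in siPAX9, and TOE1, an RNA exonuclease of Cajal bodies, had 3.82 and 2.52. TERT, the catalytic subunit of telomerase, was at 0.323 and 0.0952 FPKM, under the limit of 1, and no weight can be put on its log2 difference of -1.76.

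Among 11 genes of other rRNA-modifying enzymes and nucleolar scaffold proteins, 9 were lower, against 54.7% of named rows. Lower by at least 2-fold was 1 of the 11, NPM1, against 6.89% of named rows. NPM1 (nucleophosmin), a scaffold of the granular part of the nucleolus, had 941 FPKM in siNT and 347 in siPAX9. Its log2 difference of -1.44 was as large as that of FBL. NAT10, the acetyltransferase that works with box C/D snoRNAs, had 22.3 FPKM in siNT and 13.5 in siPAX9, a log2 difference of -0.72. NCL (nucleolin) had 418 FPKM and 295, a log2 difference of -0.50. The median of the 11 was -0.36, so most of them were less far below siNT than FBL and NPM1.

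Of 10 partners of NOLC1 and TCOF1, 9 were lower, against 54.7% of named rows, with a median log2 difference of -0.23. POLR1D, a subunit shared by RNA polymerases I and III that is also mutated in Treacher Collins syndrome, had 178 FPKM in siNT and 103 in siPAX9, a log2 difference of -0.79. CSNK2B, the regulatory subunit of casein kinase 2, had 71.3 FPKM and 49.5, a log2 difference of -0.53. KBTBD8, the substrate adaptor of CUL3 that ubiquitinates NOLC1 and TCOF1, was at 0.833 FPKM in siNT and 1.81 in siPAX9. Both values lie near the minimum of 1. Higher by at least 2-fold was 1 of the 10, KBTBD8, against 7.26% of named rows. Over the 4 partner lists, 36 of 41 genes were lower by any amount, against 54.7% of named rows. Lower by at least 2-fold was 1 of the 41, against 6.89% of named rows. An FPKM of at least 10 was reached by 32 of the 41 genes. Among named rows at that level, 60.7% were lower by any amount and 5.85% by at least 2-fold.

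Common reference genes did not stay level between the groups. Of 10, 5 were lower, against 54.7% of named rows, and 5 were higher, with a median log2 difference of -0.10. HPRT1 was at 33.2 FPKM in siNT and 10.6 in siPAX9, a log2 difference of -1.65 that was larger than that of FBL. PPIA and GAPDH differed by -0.76 each, more than 8 of the 10 snoRNP genes. Centred on the median of the reference genes, the 10 snoRNP genes stayed lower, with FBL at -1.34 and NOP10 at -0.12.

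**Figure D4:**
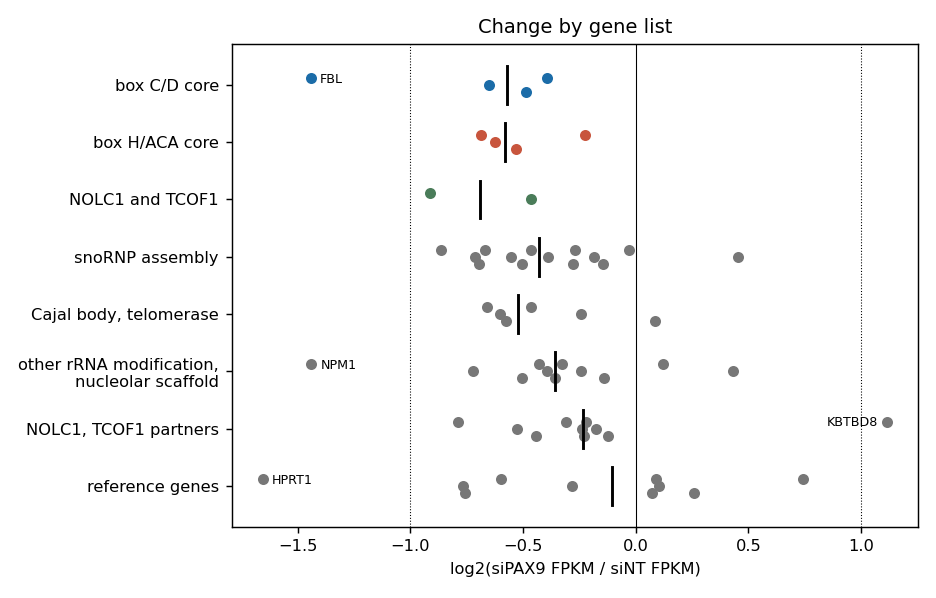
Each point is the log2 difference (siPAX9 over siNT, pooled FPKM) of 1 gene with an FPKM of at least 1, in rows by gene list, with a black bar at the median of the list and dotted lines at 2-fold. FBL, NPM1 and HPRT1 lie below the lower 2-fold line and KBTBD8 above the upper one.

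The RNA partners of these proteins were covered unevenly. The libraries were made from poly(A)+ RNA, and its part in this coverage was not tested. The values of these rows are not taken as levels of mature snoRNAs. Of 388 rows that carried only snoRNA or small Cajal body RNA symbols, 241 were listed at 0 in both groups, 205 of the 262 box C/D rows, 33 of the 105 box H/ACA rows and 3 of the 21 rows of small Cajal body RNAs. Of the 262 box C/D rows (SNORD), 38 had an FPKM of at least 1 and were above 0 in both groups, with 7 lower and 3 higher by at least 2-fold and a median log2 difference of -0.13. Of the 105 box H/ACA rows (SNORA), 54 did so, with 5 lower and 8 higher and a median of -0.03. Of the 21 rows of small Cajal body RNAs (SCARNA), 10 did so, with 3 lower and 1 higher and a median of 0.58. Over the 102 such rows of all classes, 15 were lower and 12 higher by at least 2-fold, beside 6.89% and 7.26% of named rows. The rows of NOP56 and DKC1 are themselves labelled with intronic snoRNAs, SNORD56, SNORD57 and SNORD86 for NOP56 and SNORA36A and SNORA56 for DKC1, so their values cannot be split between host mRNA and snoRNA. In the locus of NOP58, SNORD70 was listed at 0 in both groups. SNORD11 was listed at 0 in siNT and 70.4 in siPAX9, and SNORD11B at 10.3 and 0. The deposited status of these rows is NOTEST and they share the locus of NOP58, so no weight can be put on their values. The row of NOP56 shares its locus with IDH3B, which had 40.4 FPKM in siNT and 32.8 in siPAX9.

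Reads of some of these mRNAs can align to copies elsewhere. A search of 18023 rows of at most 5000 bases with the transcripts of the 10 genes found unnamed rows that held a near-copy, with at least 85% identity over at least 76 bases, for 7 genes. There were 5 such rows for NOLC1, 4 for NOP56 and 1 each for NOP58, NHP2L1, GAR1, NHP2 and TCOF1. FBL, DKC1 and NOP10 had 0. In the case of NHP2L1, a row on chromosome 12 (133476557 to 133476765) with 89.9% identity had 264 FPKM in siNT and 164 in siPAX9, a log2 difference of -0.69 beside -0.65 for the gene. The copy of NOP58 (chromosome 12, 89565478 to 89565617) differed by -0.50 beside -0.49 for the gene. That of TCOF1 (chromosome 17, 72260488 to 72260648) differed by -0.79 beside -0.91. These rows matched only 14.2% (NHP2L1), 6.82% (NOP58) and 3.18% (TCOF1) of the transcript. The copy of GAR1 (chromosome 4, 185480290 to 185480786), which matched 52.1% of the transcript and had 13.2 FPKM in siNT and 11.2 in siPAX9, differed by -0.24 beside -0.53, and that of NHP2 (chromosome 7, 27087874 to 27088180), which matched 39.5% and had 25.1 and 12.6 FPKM, differed by -0.99 beside -0.69. The 4 copy rows of NOP56 ranged from -0.81 to -0.14 around the gene at -0.39. The 5 copy rows of NOLC1 ranged from -0.71 to 0.16, with the gene at -0.46. Those of NOLC1 matched 2.82% to 5.86% of the transcript, at up to 1253 FPKM in siNT beside 81.9 for the gene. Those of NOP56 matched 4.55% to 9.30%, at up to 2678 FPKM in siNT beside 75.3. Rows that lie close together, as on chromosome X for NOLC1 and chromosome 6 for NOP56, may be pieces of the same copy. The FPKM of a row about as short as a read is scaled up by its small length and was not added to that of the gene. The part that reads at these copies had in the values of the 7 genes was not tested.

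**Figure D5:**
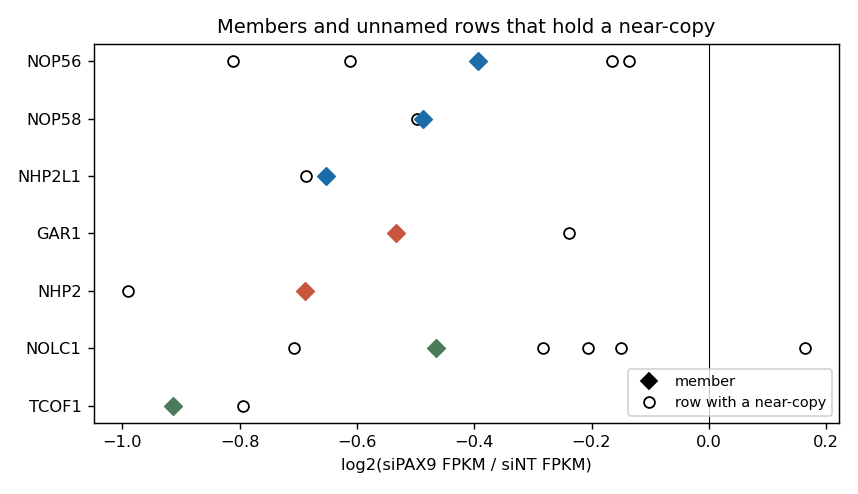
Log2 difference (siPAX9 over siNT, pooled FPKM) of the 7 genes with a near-copy in an unnamed row (diamonds) and of each copy row (open circles). The rows for NOP58 and NHP2L1 lie on or beside the gene, and the 5 rows for NOLC1 spread from -0.71 to 0.16.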

How the data were processed

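RNA-seq was performed on 3 siNT and 3 siPAX9 samples of MCF10A cells. Per the study's methods, single-end reads were aligned to UCSC hg19 with Bowtie 2, which does not align reads across splice junctions, and quantified with Cufflinks in Partek Flow. The authors deposited 1 FPKM per row and group, with the samples of a group combined. The scaling between libraries is not given in the sources used here. The deposited fold change, p-value and q-value columns hold the authors' own comparison and were not used. A locus in the table spans all overlapping genes assembled together, and starts are printed 1-based.

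From the FPKM values, log2(siPAX9/siNT) was computed with no pseudocount. A gene held by several rows was taken from the row with the highest mean. Named rows carried a symbol, had values above 0 in both groups and reached an FPKM of 1 in at least 1 group. The limit was 2-fold, as in the study's methods. Members and lists were chosen with earlier results of these data known. Named in the text were all 10 members, PAX9, in each gene list the genes past 2-fold and the 3 with the largest difference, the markers of cell identity by range, and the 5 rows nearest to FBL. Single markers of cell identity, PHAX, IDH3B and the snoRNAs were named after their values were seen. SMN1 had no row under its symbol. Copies were searched with blastn 2.17.0 on GRCh37, which has the coordinates of hg19, with GENCODE 44 transcripts and bedtools 2.31.1. Counting was tested on simulated data. Python 3.11.15, pandas 2.3.3 and matplotlib 3.10.9 were used. Protein sequences were not analysed here.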

Additional observations from a re-analysis of the deposited data

How the results depend on the processing

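The alternatives were 1 added to each FPKM, no minimum FPKM or a minimum of 10, centring on the median of named rows (-0.06) or of the reference genes (-0.10), summing rows, single-symbol rows only, and fold limits of 1.5 and 4. Taking only exact symbols, which leaves out NHP2L1, was chosen after seeing the data. Each of the 10 genes was lower in siPAX9 under every one of these that kept it. Its log2 difference and the medians moved by at most 0.15. Each gene had 1 row and an FPKM above 10, so the minimums, summing, symbol filters and fold limits could not change its log2 difference. Centring shifted every gene alike, by less than the difference of NOP10. Adding 1 cannot change a sign, so the direction was fixed under all of these. The difference of PAX9, which is low in both groups, was -1.52 with 1 added to each FPKM, against -3.10 without. FBL ranged from -1.44 to -1.34 and NOP10 from -0.23 to -0.12. Rows with a single symbol leave out NOP56 and DKC1. At a fold limit of 1.5, 5 genes were lower, against 16.8% of named rows. At a limit of 4, 0 were, and the share of named rows at that limit was not computed. With no minimum FPKM, 2 of 42 genes of the partner lists were lower by at least 2-fold, since TERT then counted. The share of named rows with no minimum was 8.20%. With only the 250 bases before the start, CACGTG was found for 1 of the 6 genes, against 7.73% of all genes. No paired analysis was possible because the columns are pooled per group and carry no replicate number, and for the same reason no replicate could be left out. The table gives no values per sample and no counts, so the precision of each FPKM was not estimated, and differences were not set against the variation between samples. The authors' own p-values and q-values were not used.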
